A study of Homo sapiens with 9 samples.

Results

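The small nuclear RNAs (snRNAs) and small nucleolar RNAs (snoRNAs) of HEK293T cells were followed from total cell lysate into immunoprecipitates of the nuclear and of the cytoplasmic poly(A) binding protein. The set holds the genes whose biotype was snRNA, snoRNA or scaRNA (small Cajal body RNA) and whose baseMean, the mean normalized read count over 6 libraries, was above 10 in at least 1 of the 2 deposited tables. Of 1635 such small RNA genes listed (1238 snRNA, 376 snoRNA and 21 scaRNA genes, among 51274 genes in all), 34 met the rule: 26 snRNA genes, 8 snoRNA genes and 0 scaRNA genes. Of the other genes, 1265 (77.4%) were listed at 0 in both tables and 336 lay above 0 but not above 10. A listed 0 does not show that an RNA was absent, since RNU1-3 and RNU11, genes of the U1 and U11 RNAs that cells use throughout, were also listed at 0. RNU11 overlaps ENSG00000270103 on its own strand. The authors had removed stretches shared by overlapping genes. In GENCODE release 44, 45.9% of 2892 small RNA genes share bases with another gene of their strand. Of the listed genes with an entry there, 2.38% do. Release 44 holds 942 snoRNA and 49 scaRNA genes, so the 8 snoRNA and 0 scaRNA members do not measure these classes in the cells. Just inside the limit lay RNU2-61P at 10.7 (PABPN table) and 6.43 (PABPC table). Just outside lay an unnamed snoRNA gene, ENSG00000253047, at 9.75 and 4.65, and RNVU1-28 at 7.9 and 5.75. The members were chosen by baseMean, so how high they stood is given as a description only.

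HEK293T is an established cell line from human embryonic kidney, here with the genotype given as wildtype. All cells, those of the input included, were crosslinked with 0.1% formaldehyde for 10 min. The libraries compared were Input (RNA of the total cell lysate, no immunoprecipitation), PABPN RIP (RNA immunoprecipitation with an antibody against endogenous PABPN) and PABPC RIP (the same with an antibody against endogenous PABPC), with 3 libraries each from 3 independent biological replicates, so that p-values measure the spread between these replicates. Each lysate was divided between both antibodies, RNA was depleted of ribosomal RNA, and stranded libraries were read as single ends of 75 nt. No library of a mock immunoprecipitation was analysed here, so input is the only background. As a check of the line, its marker genes stood high, such as LIN28B (baseMean 9419 in the PABPN table) and NEFM (56817), against 0.804 for the leukocyte gene PTPRC and 0 for the T cell gene CD3E. In bulk lysates, fewer cells with an RNA and less of that RNA per cell cannot be told apart.

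Poly(A) binding proteins coat the adenosine tails of RNA, PABPN largely in the nucleus and PABPC largely in the cytoplasm. Mature snRNAs and snoRNAs are not polyadenylated in the way mRNAs are. Their precursors can receive short oligo(A) tails from TENT4A and TENT4B, which mark them for trimming or decay by the nuclear exosome, and such tails are removed again by deadenylases such as PARN and TOE1. snRNAs of the Sm class are made by RNA polymerase II, pass through the cytoplasm for assembly with Sm proteins and cap hypermethylation, and return to Cajal bodies and splicing speckles. U6 and U6atac are made by RNA polymerase III and end in a run of U. In the spliceosome, U1 pairs with the 5′ splice site, U2 with the branch site, U4 holds U6 inactive, U6 joins the catalytic centre, and the loop of U5 holds the ends of the exons. Box C/D and box H/ACA snoRNAs guide chemical modification or cleavage of ribosomal RNA precursors in the nucleolus.

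The sequences of 8 members are shown for what a short read could tell apart and for the members that stood out. They were read from the GRCh38 genome (hg38) at the positions of GENCODE release 44, 5′ to 3′ and in DNA letters, on the transcribed strand except for SNORA104 and SNAR-G1. In each motif search only that strand was read, and a share of windows refers to 2892 windows of matched length taken 1 kb downstream of annotated small RNA genes.

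Among the U1 variants (RNVU1 genes, all on chromosome 1), capitals mark ACTTACC, the letters near the start of U1 that pair with the 5′ splice site. RNVU1-15 lacks an exact match and is shown beside 2 variants that have one.
RNVU1-27, chr1:148522601-148522765, plus strand: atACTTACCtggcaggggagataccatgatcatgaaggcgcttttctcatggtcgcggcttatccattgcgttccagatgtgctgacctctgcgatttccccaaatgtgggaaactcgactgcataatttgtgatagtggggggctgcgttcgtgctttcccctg
RNVU1-31, chr1:145465617-145465780, minus strand: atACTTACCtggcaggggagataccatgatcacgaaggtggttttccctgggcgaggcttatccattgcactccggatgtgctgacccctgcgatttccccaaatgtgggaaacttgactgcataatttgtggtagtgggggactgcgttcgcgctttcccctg
RNVU1-15, chr1:144412576-144412740, plus strand: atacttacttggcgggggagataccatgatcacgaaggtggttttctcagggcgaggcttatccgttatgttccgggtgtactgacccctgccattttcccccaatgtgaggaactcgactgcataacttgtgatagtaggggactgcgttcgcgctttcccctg

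ACTTACC was found in 4 members, RNVU1-27, RNVU1-31, RNVU1-7 and RNVU1-29 (0.45% of windows), and the Sm site in its U1 form, ATTTGTG, in 7 members (1% of windows). RNVU1-29, RNVU1-7 and RNVU1-31 were near-identical, at 98.2 to 99.4% identity, whereas identity over all 9 variants went down to 52.9%.

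For U4, capitals mark the Sm site ATTTTTG in RNU4-2, a letter run found in 4 members (3.6% of windows). RNU6ATAC, the U6 of the minor spliceosome and the member that fell most in the PABPC RIP, is shown beside it without capitals.
RNU4-2, chr12:120291763-120291903, minus strand: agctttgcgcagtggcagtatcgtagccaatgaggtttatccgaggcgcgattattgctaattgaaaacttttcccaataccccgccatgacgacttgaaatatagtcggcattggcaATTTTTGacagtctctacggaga
RNU6ATAC, chr9:134164439-134164564, minus strand: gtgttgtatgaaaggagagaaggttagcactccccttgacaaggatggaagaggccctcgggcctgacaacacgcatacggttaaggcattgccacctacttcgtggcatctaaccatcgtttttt

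The last 3 sequences belong to the members that rose in a RIP. In SNORA11F, capitals mark the ACA near the 3′ end that gives box H/ACA snoRNAs their name. SNORA104 and SNAR-G1 were listed from RefSeq without a strand in the tables used, so the forward strand of the genome is printed for both. The capitals in SNORA104 mark an ACA near the end of that printed strand, which may not be the strand of the RNA.
SNORA11F, chr10:73126080-73126207, minus strand: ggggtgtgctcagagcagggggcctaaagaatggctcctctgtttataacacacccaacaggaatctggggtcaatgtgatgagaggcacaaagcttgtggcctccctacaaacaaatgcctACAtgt
SNORA104, chr19:14622213-14622351, forward strand of the genome: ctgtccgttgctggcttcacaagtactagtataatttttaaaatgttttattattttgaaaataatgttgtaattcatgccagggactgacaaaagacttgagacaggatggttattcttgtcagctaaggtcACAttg
SNAR-G1, chr19:49037020-49037147, forward strand of the genome: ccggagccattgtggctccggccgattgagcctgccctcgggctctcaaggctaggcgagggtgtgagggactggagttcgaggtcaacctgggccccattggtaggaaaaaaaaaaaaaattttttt

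The printed strand of SNAR-G1 holds a run of 14 A near its end. The longest run of A in any of the other 33 members was 2 to 5 bases, as annotated.

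Whole read counts for 30 of the 34 members were worked back from the baseMean columns of both tables, which share the input libraries. The libraries of a group are called a, b and c in order of size factor, since the tables do not carry replicate numbers. Reads counted in genes were estimated at 34.25 to 51.5 M per library, if normalized totals were equal, which is not the total depth of the libraries. Levels are given as normalized reads, that is reads divided by a size factor of 0.67 to 1.13, and levels of different genes are compared only per kilobase of gene length. A gene was called lower or higher when limma voom gave a Benjamini-Hochberg adjusted p of at most 0.01 over all genes fitted and a log2 fold change beyond 0.5 in size. All adjusted p-values are from that fit, and ± marks the standard error of a log2 fold change. Both RIPs were compared with the same 3 input libraries, so these comparisons are not independent of each other. In each group 1 library had a wider spread against the other 2 than they had. The ratio of PABPN RIP library c to the mean of libraries a and b ran from 0.63 to 1.75 (5th to 95th percentile of 8555 genes at 20 or more normalized reads), against 0.646 to 1.33 for library a and 0.641 to 1.27 for library b. PABPC RIP library a ran from 0.655 to 1.78 and Input a from 0.705 to 1.67, against 0.606 to 1.33 for the other PABPC RIP and 0.612 to 1.28 for the other Input libraries. Every fit was repeated without each library, and calls that this changed are given with the library named.

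Which copy a read came from could not be settled for every member. In 23 of 34 members, every 75-base stretch that overlaps the gene by at least 20 bases occurs once in the genome. The exceptions were the U3 genes SNORD3A (6.12% of stretches unique), SNORD3C (12.2%), SNORD3B-1 (20.5%) and SNORD3B-2 (25%), the U6 genes RNU6-1 (75.5%), RNU6-7 and RNU6-8 (74.1% each), and RNVU1-29 (50.5%), RNVU1-7 (60%), RNVU1-31 (98.5%) and SNORA104 (82.9%). No stretch lying wholly inside RNVU1-29 (0 of 90), RNU6-1, RNU6-7 or RNU6-8 (0 of 33 each) is unique, so reads that tell them apart must reach into flanking sequence. RNU1-1, a canonical U1 gene, had 29.5% unique stretches and a baseMean of 0.529 in the PABPN table, and RNU1-3 had 0% and a baseMean of 0. How the authors treated reads that map to several places is not given in the sources used here. Values of these genes are uncertain to that extent. A further 7 members lie within or across a gene on the opposite strand, namely RNU5E-4P (ENSG00000285646), RNU5A-1 (PARP16), RNU5F-1 (ARMH1), RNU5A-8P (HHAT), RNU2-59P (BTRC), SNORA11F (NUDT13) and SNORA80C (ZNF771), as do RNU6-1 (ENSG00000259410) and RNVU1-29 (ENSG00000290578). The libraries were stranded and the deposited length of all 34 members equals the annotated length, but the strand setting of the counting is likewise not given. Whether reads of the 2 partners were kept apart was not tested.

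**Figure D1:**
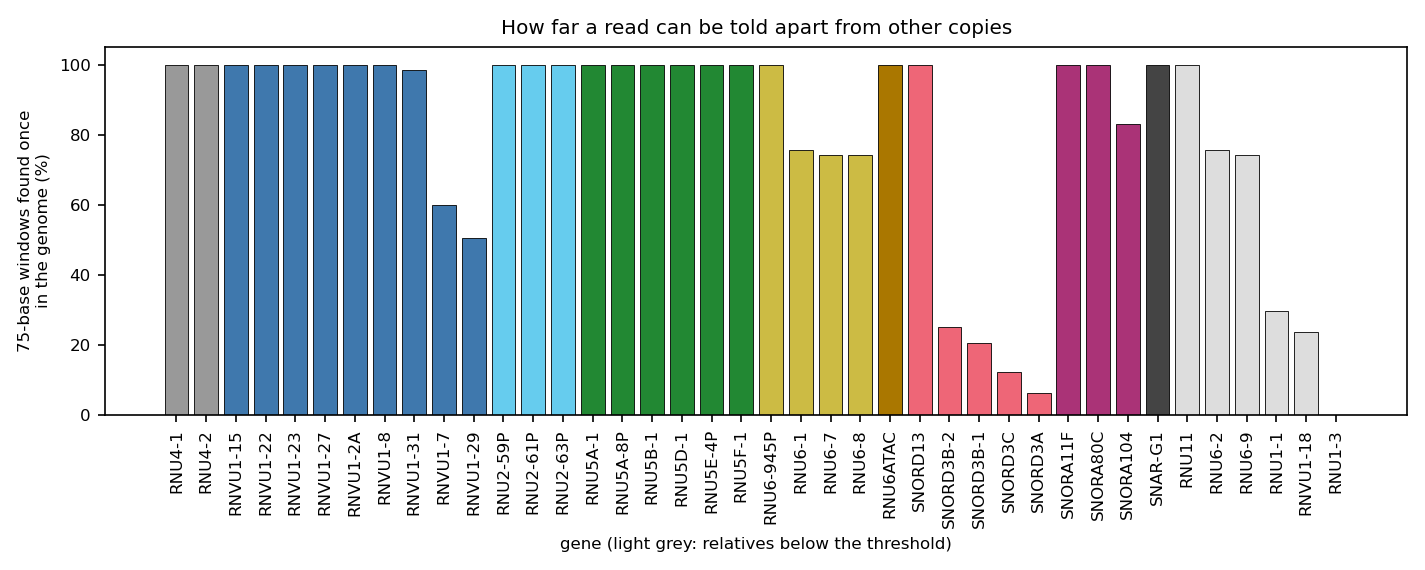
Bars give, for each member and 6 relatives below the limit (light grey), the percent of 75-base genome windows overlapping the gene by at least 20 bases that occur once in the genome; colours mark RNA classes. The U5 genes reach 100%, the SNORD3 genes 6.12 to 25%, and RNU1-3 lies at 0.

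The level in input differed over orders of magnitude between members. Among the 30 members with whole reads, SNORD13 stood highest per kilobase, at 10261 normalized reads (library range 8739 to 11389). RNU5A-1 followed at 5479 and RNU6ATAC at 5106, and the ranges of these 2 overlapped. RNU5B-1 (2819), RNU5F-1 (2221) and RNVU1-27 (1722) came next, each apart from its neighbours. From RNU5A-8P (645) downward most neighbours in the order overlapped, to SNORD3B-1 at 34.8. The 4 members of highest baseMean could be given only by that value, the authors' mean: SNORD3A (U3) at 11731 (PABPN table) and 10346 (PABPC table), RNVU1-31 at 2940 and 1977, RNU4-2 at 2491 and 1699, and RNU4-1 at 1526 and 1061. Per kilobase of length, the baseMean of all 4 in the PABPN table, 10823 (RNU4-1) to 17928 (RNVU1-31), stood above that of SNORD13 (5437). BaseMean averages input with RIP libraries, in which SNORD13 was lower than in input. The order of SNORD13 and these 4 in input is therefore not shown. The reads of the 4 were too many to be worked back to 1 solution.

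**Figure D2:**
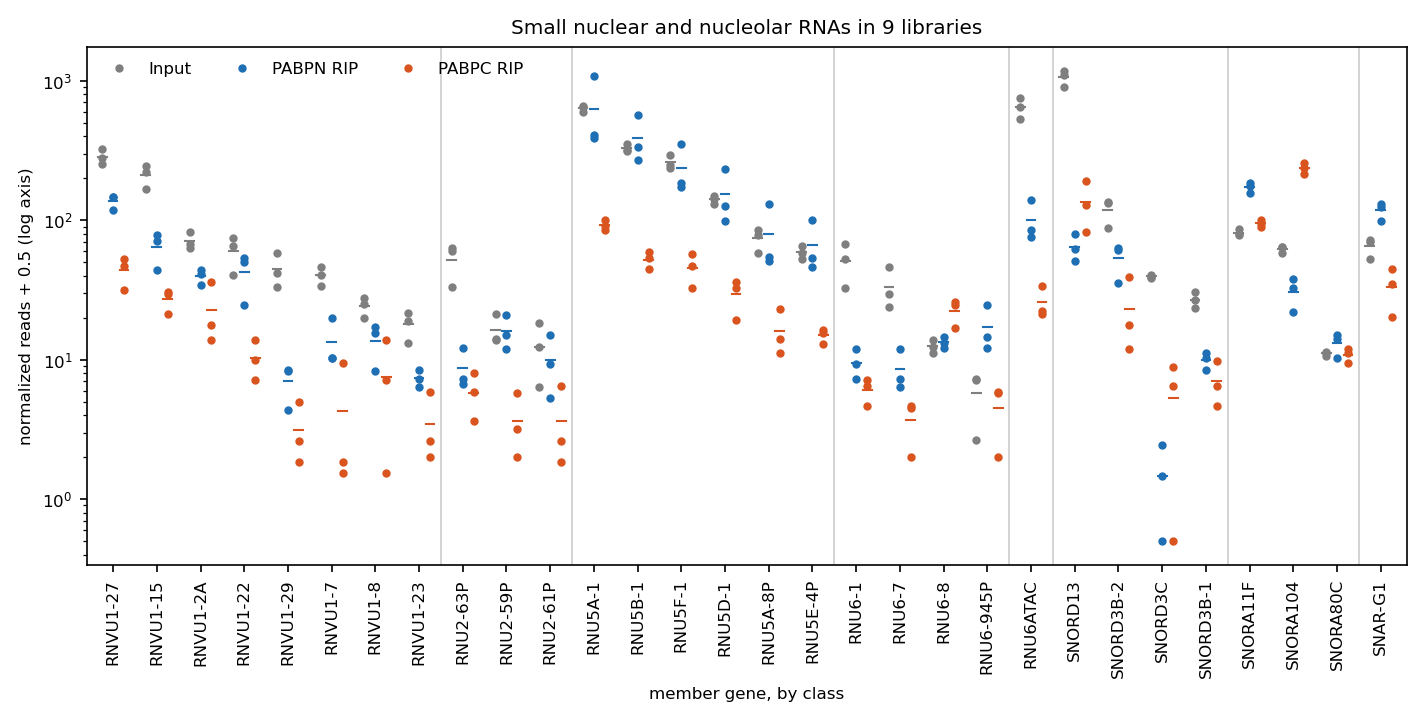
Each point is 1 library (grey Input, blue PABPN RIP, orange PABPC RIP; 3 each) and each short line a group mean, as normalized reads + 0.5 on a log axis, for the 30 members with whole reads, ordered by class. The 6 U5 genes have PABPN RIP points around the input points and PABPC RIP points far below them.

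As a group, these RNAs stood lower in the PABPC RIP than in input. Of 25 members fitted there, 22 were lower, where 33.3% of 9756 genes fitted were lower, and 1 was higher, where 28.4% were higher. The median log2 fold change of the members was -2.58, and that of all genes fitted was -0.10. In the PABPN RIP the picture was mixed: of 30 members fitted, 13 were lower, where 4.43% of 10601 genes were, 2 were higher, where 14% were, and 15 were not called. Without Input b or without PABPN RIP b, 8 were lower, and 1 was higher in each fit that left out a library other than PABPN RIP c. The median there was -0.86 for the members and 0.14 for all genes. Set directly against each other over all 9 libraries, 16 of 30 members were higher in the PABPN RIP than in the PABPC RIP, where 42.8% of 10990 genes were, and 2 were lower, where 20.5% were. All genes fitted had a median of 0.71 in that comparison, against 1.42 for the members. All 30 members fitted were above the baseMean limit in the PABPN table, but only 25 of them in the PABPC table. The choice of the others favoured a height in the PABPN RIP. Their calls among the 16 therefore carry no support, and they also enter the median of 1.42. With fold changes centred on the median of 0.71, 8 members were higher (21.4% of all genes) and 3 were lower (32.8%). That median holds for the genes fitted. Among the 9272 genes at a baseMean of 1000 or more, the PABPC RIP mean was the higher in 52% and the PABPN RIP mean in 46.6%.

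**Figure D3:**
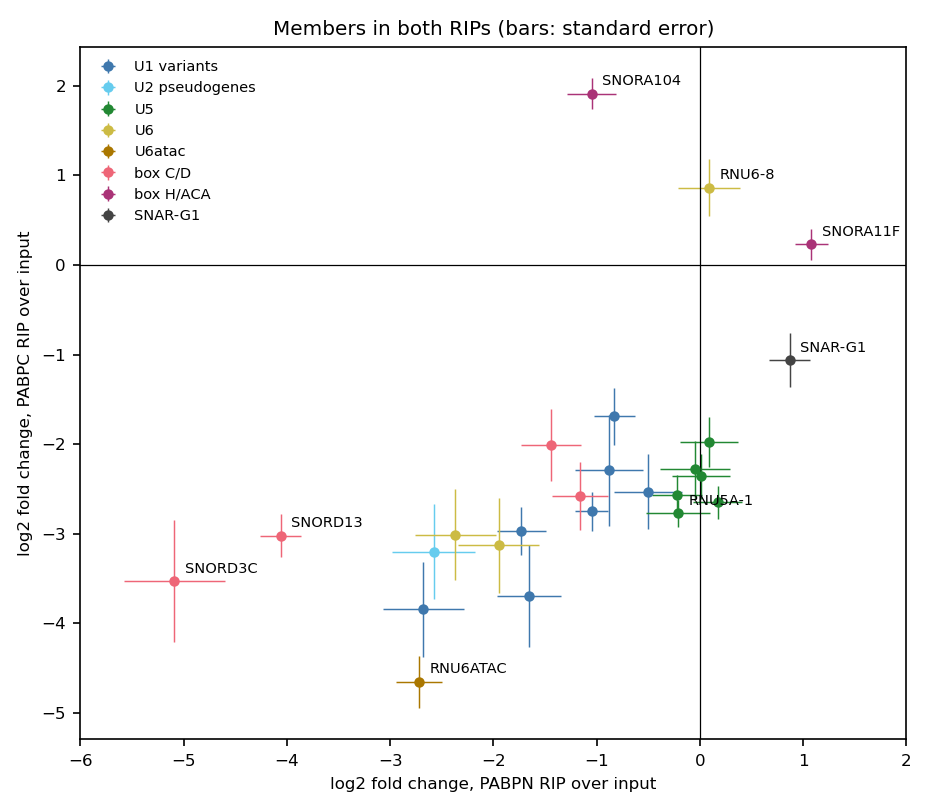
Log2 fold change over input in the PABPN RIP (x axis) and in the PABPC RIP (y axis) for the 25 members fitted in both, coloured by class, with standard errors as bars; both axes share the input libraries. The U5 genes lie near 0 on the x axis and between -2.77 and -1.98 on the y axis, and SNORA104 alone combines a fall in the PABPN RIP with a rise in the PABPC RIP.

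U5 genes moved alike: 6 of 6 were lower in the PABPC RIP than in input, where 33.3% of all genes were. In the PABPN RIP against input 0 of 6 were called, where 4.43% of all genes were lower and 14% were higher. RNU5A-1, a main expressed U5 gene, had 595, 651 and 660 normalized reads in input, 385, 410 and 1074 in the PABPN RIP and 100, 90.3 and 85.1 in the PABPC RIP. Its PABPC RIP libraries lay far below all input libraries, while PABPN RIP libraries a and b lay below input and library c above it. It fell by 2.77 ± 0.15 on the log2 scale in the PABPC RIP (6.83-fold, adjusted p = 1.40e-07), and its value in the PABPN RIP was -0.21 ± 0.31 (adjusted p = 0.66). RNU5B-1 had 312, 351 and 318 normalized reads in input, 268, 335 and 565 in the PABPN RIP and 53.2, 43.8 and 58.2 in the PABPC RIP. Again PABPN RIP overlapped input and PABPC RIP did not, with a fall of 6.28-fold in the PABPC RIP. RNU5F-1 had 238, 292 and 249 in input, 172, 183 and 349 in the PABPN RIP and 32.3, 46.5 and 56.7 in the PABPC RIP, and it fell 5.92-fold there. RNU5D-1 had 149, 131 and 142 in input, 98.2, 126 and 234 in the PABPN RIP and 18.8, 31.9 and 35.8 in the PABPC RIP. Its PABPN RIP libraries overlapped input and its PABPC RIP libraries did not, with a fall of 5.13-fold. The copies RNU5A-8P and RNU5E-4P, whose names mark them as pseudogenes, did not stand apart: RNU5A-8P fell 4.85-fold and RNU5E-4P 3.95-fold in the PABPC RIP. Across the 6 genes the median log2 fold change was -2.46 in the PABPC RIP and -0.02 in the PABPN RIP.

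Between the RIPs, all 6 U5 genes were higher in the PABPN RIP, where 42.8% of all genes were, by 2.07 (RNU5E-4P) to 2.83 (RNU5B-1) on the log2 scale, against a median of 0.71 for all genes. The PABPN RIP libraries lay above the PABPC RIP libraries for each U5 gene, and for 18 of the 30 members with whole reads. Some of the 18 met the rule through the PABPN table alone, a choice that favours this order. How often the PABPN RIP libraries lie above over all genes was not computed. RNU5A-1 was 5.92-fold higher (2.57 ± 0.42, adjusted p = 1.08e-04) and RNU5B-1 was 7.09-fold higher (adjusted p = 4.15e-06). After centring on the median of all genes fitted, 5 of the 6 kept their call, with RNU5A-8P at 1.52 (adjusted p = 0.012). The height of the U5 genes in the PABPN RIP moved with library c. Its ratio to the mean of libraries a and b was 1.87 to 2.7 over the 6 genes (median 2.05), where all genes had a median of 1.07. For RNU5A-1, the ratio of 2.7 was exceeded by 18 of 8555 genes. RNU6ATAC had a ratio of 1.73, whereas the 4 U1 variants at 20 or more normalized reads had ratios of 0.474 to 1.17. Without library c, all 6 U5 genes remained higher in the PABPN RIP than in the PABPC RIP, by 1.74 to 2.53, and RNU5A-1 was called lower in the PABPN RIP than in input (-0.68 ± 0.11, adjusted p = 5.21e-04). RNU5F-1 then stood at -0.54 (adjusted p = 0.013) and the other 4 between -0.48 and -0.13, not called. What sets library c apart for U5 was not tested.

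**Figure D4:**
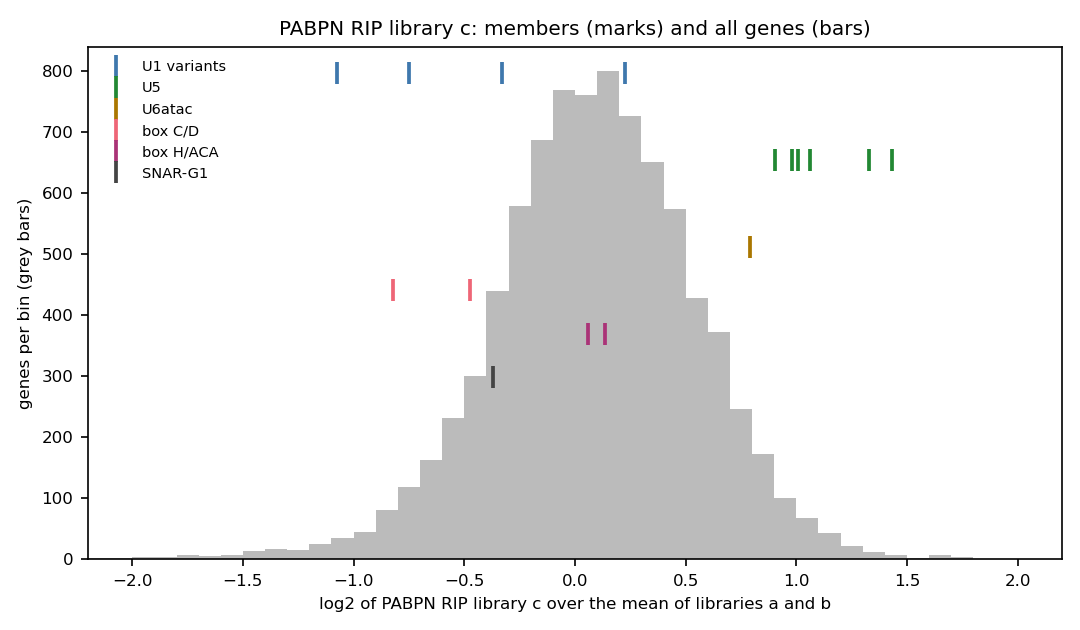
Grey bars count genes by the log2 ratio of PABPN RIP library c to the mean of libraries a and b (8555 genes at 20 or more normalized reads); coloured marks place the 16 members that reach that level, 1 row per class, at arbitrary height. The 6 U5 marks lie to the right of most genes, at ratios of 1.87 to 2.7, and the box C/D and most U1 variant marks to the left.

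U1 variants are copies of the U1 gene, with an identity among the members of 52.9 to 99.4%. They were lower in the PABPC RIP in 7 of 7 genes fitted, where 33.3% of all genes were, and lower in the PABPN RIP in 4 of 8, where 4.43% were. RNVU1-27 had 253, 277 and 323 normalized reads in input, 146, 147 and 117 in the PABPN RIP and 31.3, 51.8 and 46.3 in the PABPC RIP. The 3 groups did not overlap, with input highest and PABPC RIP lowest. It fell 2.07-fold in the PABPN RIP (adjusted p = 8.44e-04) and 6.71-fold in the PABPC RIP (adjusted p = 1.54e-06). RNVU1-15 had 166, 220 and 246 in input, 69.9, 77.5 and 43.7 in the PABPN RIP and 20.9, 29.2 and 29.9 in the PABPC RIP. It showed the same order, with falls of 3.32-fold and 7.81-fold. RNVU1-29 and RNVU1-7 fell more steeply, 14.3-fold and 12.9-fold in the PABPC RIP, on 6 and 8 PABPC RIP reads in all, and both share most of their sequence with RNVU1-31. RNVU1-22 overlapped input in the PABPN RIP, with 39.7, 73.8 and 64.8 in input and 53.1, 49.4 and 24.3 in the PABPN RIP (-0.50 ± 0.33, adjusted p = 0.28). It fell 5.76-fold in the PABPC RIP. RNVU1-2A fell 3.22-fold in the PABPC RIP and missed the threshold in the PABPN RIP (-0.83 ± 0.20, adjusted p = 0.011), which it passed without PABPN RIP library c (-0.91, adjusted p = 0.0088). RNVU1-8 fell 4.87-fold in the PABPC RIP and stood at -0.88 (adjusted p = 0.068) in the PABPN RIP. Its PABPC RIP call was lost without Input b (adjusted p = 0.017), Input c (0.015), PABPC RIP a (0.024) or PABPC RIP b (0.015). The PABPN RIP call of RNVU1-7 was lost without Input b (adjusted p = 0.012), PABPN RIP a (0.017) or PABPN RIP b (0.016).

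Between the RIPs, 4 of 8 U1 variants were higher in the PABPN RIP, where 42.8% of all genes were: RNVU1-27 (1.70 ± 0.23), RNVU1-15 (1.24 ± 0.32), RNVU1-22 (2.03 ± 0.49) and RNVU1-7 (2.12 ± 0.64). After centring, RNVU1-27 alone of the 4 was called (0.98, adjusted p = 0.0021). The call of RNVU1-15 was lost without PABPN RIP a, PABPN RIP b or PABPC RIP a (adjusted p = 0.013, 0.013 and 0.022), that of RNVU1-22 without PABPC RIP a or PABPC RIP b (0.011 and 0.01), and that of RNVU1-7 was kept in 1 of 9 fits that left out a library, without PABPC RIP c. RNVU1-2A became a call without PABPC RIP a (1.31, adjusted p = 0.004). RNVU1-31, the most abundant variant by baseMean, could be bounded: because both tables share the input, its mean over the PABPN RIP libraries exceeded its mean over the PABPC RIP libraries by 1254 normalized reads, within bounds of 1207 to 1281 set by the shared input.

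The U4 genes, which act in the spliceosome as partners of U6, could be described in the same way. The PABPN RIP mean of RNU4-2 exceeded its PABPC RIP mean by 1008 normalized reads (968 to 1031), and that of RNU4-1 by 571 (546 to 585). Neither has a value per library or a test.

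U6 copies split. RNU6-1, an expressed U6 gene, had 32, 67.3 and 52.5 normalized reads in input, 11.5, 6.78 and 8.75 in the PABPN RIP and 4.17, 6.64 and 5.97 in the PABPC RIP. Input lay above both RIPs, with falls of 5.19-fold (adjusted p = 0.0014) and 8.05-fold (adjusted p = 3.03e-04). RNU6-7 fell 3.88-fold and 8.72-fold, and its PABPN RIP call was lost without Input b (adjusted p = 0.013) or PABPN RIP b (0.02). RNU6-8 is identical to RNU6-7 over its whole length and lies beside it on chromosome 14, yet it was not called against input in either RIP. It had 10.7, 11.9 and 13.4 normalized reads in input (34 reads in all), 14.1, 12.6 and 11.7 in the PABPN RIP and 24, 25.2 and 16.4 in the PABPC RIP. Its PABPN RIP libraries overlapped input (0.09 ± 0.30, adjusted p = 0.84). All 3 PABPC RIP libraries of RNU6-8 lay above input, though the test was not passed (0.86 ± 0.32, adjusted p = 0.031). Between the RIPs it was called lower in the PABPN RIP only after centring (-1.47, adjusted p = 5.28e-04). Since the 2 genes share every base, their reads can differ only where they reach into flanking sequence. RNU6-945P, a divergent copy, rested on 15 input reads in all and was not called in the PABPN RIP against input (1.63 ± 0.49, adjusted p = 0.027). It met the rule through the PABPN table alone (baseMean 11, against 3.94 in the PABPC table), so its choice favoured a height in the PABPN RIP. Its call as higher there than in the PABPC RIP (1.89 ± 0.56, adjusted p = 0.0079) therefore carries no support. That call was lost after centring (adjusted p = 0.078) and without Input c, PABPN RIP a, PABPN RIP c, PABPC RIP a, PABPC RIP b or PABPC RIP c (0.01, 0.013, 0.019, 0.018, 0.017 and 0.033).

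RNU6ATAC, which catalyses splicing of minor introns together with U12-type snRNAs, was lower in both RIPs. It had 532, 749 and 649 normalized reads in input, 84.9, 75.6 and 139 in the PABPN RIP and 21.9, 33.2 and 20.9 in the PABPC RIP. No library of one group reached into another. It fell 6.58-fold in the PABPN RIP (adjusted p = 2.63e-05) and 25-fold in the PABPC RIP (adjusted p = 2.99e-07), which left it 3.81-fold higher in the PABPN RIP than in the PABPC RIP (1.93 ± 0.35, adjusted p = 2.61e-04; 1.21 after centring, adjusted p = 0.0076).

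The U2 copies were low. RNU2-63P fell 5.98-fold in the PABPN RIP and 9.17-fold in the PABPC RIP, from 32.9, 63 and 59.2 normalized reads in input to 6.19, 11.6 and 6.81 and to 3.13, 5.31 and 7.47. RNU2-59P had 13.6, 20.6 and 13.4 in input and 11.5, 14.5 and 20.4 in the PABPN RIP, which overlapped. It was 4.24-fold higher in the PABPN RIP than in the PABPC RIP (adjusted p = 0.0027), a call lost after centring (adjusted p = 0.032) and without PABPC RIP b (0.011) or PABPC RIP c (0.012). RNU2-59P too met the rule through the PABPN table alone (baseMean 15.7, against 8.12 in the PABPC table), so this call carries no support.

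Box C/D snoRNAs were lower in both RIPs in 4 of 4 genes fitted, where 4.43% of all genes were lower in the PABPN RIP and 33.3% in the PABPC RIP. Apart from SNORD13 these are U3 genes that share most of their sequence, so they are not independent of each other. SNORD13 (U13), a guide for modification of 18S ribosomal RNA, had 909, 1184 and 1108 normalized reads in input, 78.7, 62 and 50.6 in the PABPN RIP and 192, 127 and 82.1 in the PABPC RIP. Both RIPs lay far below input, and the PABPN RIP below the PABPC RIP. It fell 16.7-fold in the PABPN RIP (-4.06 ± 0.20, adjusted p = 1.22e-06) and 8.09-fold in the PABPC RIP (-3.02 ± 0.24, adjusted p = 1.24e-06). It was one of 2 members lower in the PABPN RIP than in the PABPC RIP (-1.04 ± 0.31, adjusted p = 0.0079). That call was kept in 3 of 9 fits with a library left out. It was lost without Input c, PABPN RIP a, PABPN RIP b, PABPN RIP c, PABPC RIP a or PABPC RIP b, with adjusted p of 0.011, 0.011, 0.022, 0.027, 0.047 and 0.019. After centring it stood at -1.75 (adjusted p = 2.22e-04).

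The other box C/D members are the U3 genes, whose RNA directs early cleavage of the ribosomal RNA precursor. The annotated genes span more than the mature U3 RNA and share most of their sequence. SNORD3C had 38.8, 40.2 and 38 normalized reads in input and 0, 0.969 and 1.94 in the PABPN RIP. These are 3 PABPN RIP reads against 111 input reads, a ratio of 0.0241 after scaling (95% exact interval 0.0049 to 0.0723, counting error only). The PABPC RIP had 12 reads, a ratio of 0.129 (0.0649 to 0.235). SNORD3B-2 had 87.2, 132 and 135 in input, 62.8, 61 and 35 in the PABPN RIP and 11.5, 17.3 and 38.8 in the PABPC RIP, and SNORD3B-1 had 26.2, 22.8 and 30.2, then 7.96, 10.7 and 9.72, then 4.17, 9.3 and 5.97. Both stood lower in each RIP than in any input library. In the PABPN RIP their calls were borderline (adjusted p = 0.0081 and 0.004) and each was kept in 1 of 6 fits that left out a library: without Input a for SNORD3B-2, whose other adjusted p ran from 0.01 to 0.038, and without PABPN RIP c for SNORD3B-1, whose others ran from 0.01 to 0.022. SNORD3B-2 was higher in the PABPN RIP than in the PABPC RIP (1.43, adjusted p = 0.0072) though single libraries overlapped. That call was lost after centring (adjusted p = 0.14) and without PABPN RIP a, PABPN RIP b, PABPC RIP a or PABPC RIP b (0.026, 0.022, 0.057 and 0.026). SNORD3C became a call in this comparison without PABPC RIP b (-2.76, adjusted p = 0.0028). For SNORD3A, the means of the 2 RIPs differed by -742 normalized reads (bounds -979 to -609), PABPC RIP being higher.

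The box H/ACA members, from a class that guides pseudouridylation, each did something else. SNORA104 had 58.1, 64.1 and 63.7 normalized reads in input, 37.1, 21.3 and 32.1 in the PABPN RIP and 213, 258 and 236 in the PABPC RIP. Every PABPC RIP library lay above input and every PABPN RIP library below it. It rose 3.76-fold in the PABPC RIP (1.91 ± 0.17, adjusted p = 2.60e-06), the one of 25 members fitted to do so, and was 7.8-fold lower in the PABPN RIP than in the PABPC RIP (-2.96 ± 0.21, adjusted p = 8.12e-08). Its fall in the PABPN RIP (-1.05 ± 0.24, adjusted p = 0.007) was kept in 1 of 6 fits that left out a library, without PABPN RIP c. Without Input a, Input b, Input c, PABPN RIP a or PABPN RIP b the adjusted p was 0.013, 0.029, 0.029, 0.011 and 0.031. The gene overlaps ADGRE3 and ITGB1P1 at chr19:14622213-14622351, and whether its reads come from the snoRNA or from these genes was not tested.

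SNORA11F had 78.5, 85.8 and 78.2 normalized reads in input, 157, 183 and 176 in the PABPN RIP and 93.9, 99.6 and 89.6 in the PABPC RIP. Every PABPN RIP library lay above every other library. It rose 2.11-fold in the PABPN RIP (1.08 ± 0.16, adjusted p = 6.39e-04), a call kept in all 6 fits that left out a library, and stood at 0.23 ± 0.17 in the PABPC RIP (adjusted p = 0.25). Its difference between the RIPs, 0.85 ± 0.15 (adjusted p = 2.23e-04), lay close to the median of all genes fitted and was 0.14 after centring (adjusted p = 0.42). SNORA80C, at 10.1 to 10.9 in input, overlapped between all 3 groups.

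SNAR-G1 is listed as an snRNA, but it belongs to the small NF90-associated RNAs, short transcripts of RNA polymerase III that bind the double-stranded RNA binding protein NF90. It had 52.3, 69.5 and 71.5 normalized reads in input, 130, 124 and 98.2 in the PABPN RIP and 19.8, 43.8 and 34.3 in the PABPC RIP. The 3 groups did not overlap. It rose 1.83-fold in the PABPN RIP (0.87 ± 0.20, adjusted p = 0.0076) and fell 2.08-fold in the PABPC RIP (-1.06 ± 0.30, adjusted p = 0.008), and the difference between the RIPs was 1.93 ± 0.27 (adjusted p = 3.61e-05). Of these, the difference was called in all 9 fits that left out a library. The rise was lost in 5 of 6 (without Input a, Input b, Input c, PABPN RIP a or PABPN RIP b, adjusted p = 0.027, 0.024, 0.022, 0.032 and 0.031) and after centring (0.73, adjusted p = 0.018). The fall was lost in 4 of 6 (without Input b, Input c, PABPC RIP a or PABPC RIP c, adjusted p = 0.027, 0.028, 0.038 and 0.016) and after centring (-0.96, adjusted p = 0.013). Of related genes, SNAR-E was listed at a baseMean of 2.66 in the PABPN table, SNAR-G2 at 0.342 and SNAR-A1 at 0. How much of their sequence is unique was not computed, so these values do not show that they were unexpressed.

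**Figure D5:**
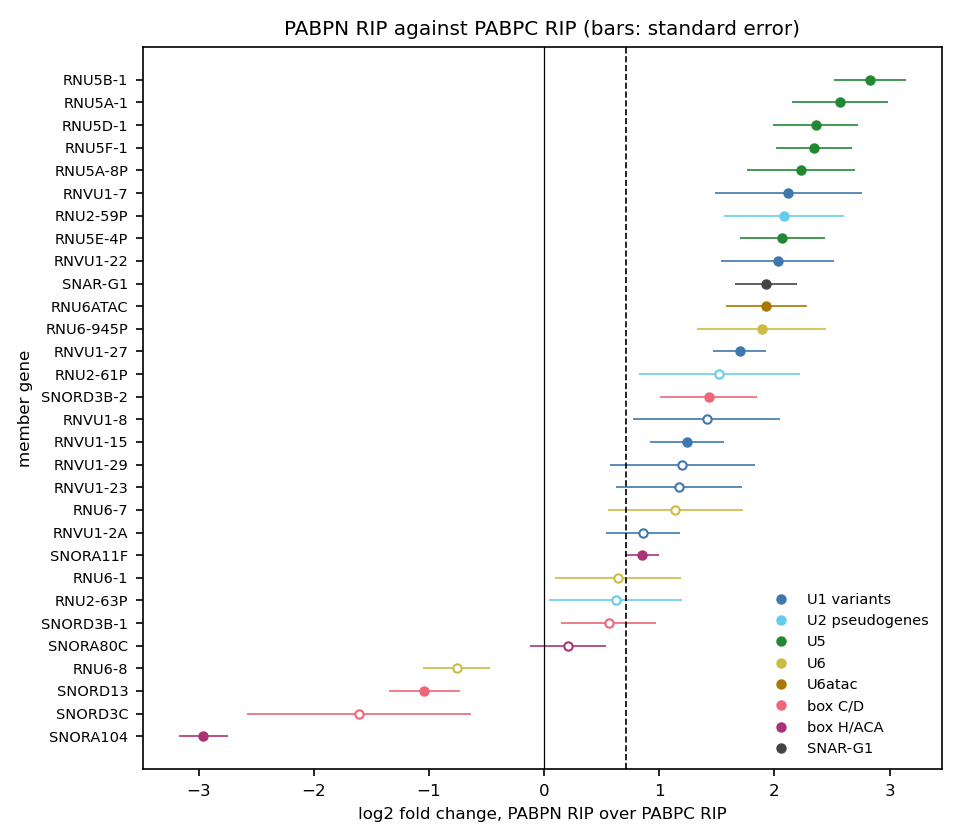
Log2 fold change of PABPN RIP over PABPC RIP for 30 members, in order of value, with standard errors as bars; filled points were called and open points were not, colours mark classes, the solid line is 0 and the dashed line the median of all genes fitted (0.71). The 6 U5 genes lie between 2.07 and 2.83, and SNORA104 lies alone at -2.96.

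A list of 51 protein genes of snRNA and snoRNA production was set beside the RNAs. Only 6 of the 51 could be fitted, because the rest had a baseMean of 1000 or more in at least 1 table. In the PABPN RIP, 1 of the 6 fell, where 4.43% of all genes did, and 0 rose, where 14% did. The gene that fell was SNAPC1, a subunit of the complex that activates snRNA promoters (-0.68 ± 0.12, adjusted p = 0.002). That call was lost without Input c (adjusted p = 0.016) or PABPN RIP b (0.01). In the PABPC RIP, 3 of the 6 rose, where 28.4% of all genes did, and 0 fell, where 33.3% did: SNAPC2 (2.43 ± 0.18, adjusted p = 7.79e-07) and SNAPC5 (1.31 ± 0.11, adjusted p = 1.58e-06), subunits of the same complex, and SMN1 (0.96 ± 0.22, adjusted p = 0.0019), which assembles Sm rings and whose reads may be shared with its near-copy SMN2. These 3 mRNAs were also lower in the PABPN RIP than in the PABPC RIP, where 20.5% of all genes were, with SNAPC2 at -2.71 on the log2 scale. SNAPC2 had 84.3, 118 and 103 normalized reads in input, 96.4, 88.2 and 66.1 in the PABPN RIP and 464, 594 and 600 in the PABPC RIP. GEMIN8, of the SMN complex, was higher in the PABPN RIP than in the PABPC RIP (0.76 ± 0.17, adjusted p = 0.0012), where 42.8% of all genes were. That call was lost after centring (0.04, adjusted p = 0.82). NUFIP1, a snoRNP assembly factor, was not called in any comparison and became lower in the PABPC RIP without Input a (-0.60, adjusted p = 0.0061). For the other 45, the 2 baseMeans put the PABPC RIP mean above the PABPN RIP mean in 31 and below it in 13, with 1 undecided, against 52% and 46.6% of the 9272 genes at a baseMean of 1000 or more. Of the 8 snoRNP core proteins, 7 had a higher PABPC RIP mean, such as FBL (PABPN RIP minus PABPC RIP, -19164 normalized reads) and NHP2 (-16929), and NOP58 (2843) a higher PABPN RIP mean. All 10 such genes of the Cajal body and SMN complex had a higher PABPC RIP mean. Of the 8 genes of 3′ end trimming and oligoadenylation, 5 had a higher PABPN RIP mean: TENT4A (4477), TENT4B (583) and ZCCHC7 (9779), parts of the complexes that add oligo(A) tails to nuclear RNA, the RNA helicase MTREX (620) and the deadenylase PARN (1106). The other 3, the deadenylase TOE1 (-947), the exonuclease USB1 (-1143) and the exosome subunit EXOSC10 (-315), had a higher PABPC RIP mean.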

How the data were processed

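Input, PABPN RIP and PABPC RIP libraries of HEK293T cells (3 each) were grouped by the sample titles. Per the labels and the methods of the study, reads were aligned to hg38 with STAR and counted by the authors with featureCounts 2.0.2 (minimum overlap of 20 bases) against GENCODE release 34 with NCBI genes added and stretches shared by overlapping genes removed. Reads in introns and exons were counted together, and genes into which an upstream neighbour was transcribed were removed for each RIP. In each of 2 tables, 1 per RIP, the authors deposited a signal column named baseMean: read counts scaled by DESeq2 size factors and averaged over 6 libraries (input and that RIP). The deposited gene length (column Length, a score here) was equal to the annotated length for 34 of 34 members and gave the values per kilobase. The remaining deposited columns hold the authors' own comparison (log2 fold change, its standard error, a Wald statistic, p-value and adjusted p-value) and were not used. No column of samples was left unused (0). The strand setting and the treatment of multi-mapping reads are not given in the sources used here.

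Since baseMean carries 15 significant digits, the size factors of the 6 libraries were read from the most frequent non-zero values (genes with 1 read), and each gene's whole reads were then solved from its values in both tables, which share the input libraries. A solution had to fit within 0.55 of the last digit. For genes with baseMean below 1000, 20116 of 20202 were recovered (99.57%), 20110 of them with 1 candidate. For 30 members with whole reads, 3 searches of different width gave 1 solution each. When values of different genes were paired, 2 of 407 gave a solution. The solver and the fits were tested on simulated data. Count models that need a counts column were not used here. Tests were limma voom (R 4.3.3, limma 3.58.1) on genes with baseMean above 10, below 1000 in both tables and with recovered reads. PABPN RIP and PABPC RIP were each compared with input over 6 libraries, and with each other over all 9, with the PABPC table scaled to the input size factors of the PABPN table. The estimate of 34.25 to 51.5 M reads counted in genes per library assumes equal normalized totals. Total depth was not estimated. Counts cover counting error only, and molecules were not tagged.

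Alternatives were another test (limma trend on log2 values with a pseudocount of 0.5 or 5), a baseMean filter of 50 or 1, centring on the median, a log2 cut-off of 1, an adjusted p of 0.05, all 9 libraries in 1 fit, a stricter rule for recovered reads, and leaving out each library. The members, the gene lists and the tests were chosen with earlier results of these data known. Named were the 25 members with whole reads and the largest baseMean, members near the limit, and, by baseMean alone, members without whole reads. Others singled out, SNORA80C and RNU6-945P, were chosen after their values were seen. Positions and sequences are from GENCODE release 44 on GRCh38 and, for SNORA104 and SNAR-G1, from RefSeq on GRCh38.p14. Some sequences are not reported here.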

Additional observations from a re-analysis of the deposited data

Results flagged for a closer look

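For 2 members the direction differed between the RIPs. SNORA104 stood below input in every PABPN RIP library and above input in every PABPC RIP library, and the difference between the RIPs passed the test at -2.96 on the log2 scale (adjusted p = 8.12e-08, limma voom). It was -3.68 after centring on the median of all genes fitted. SNAR-G1 did the opposite, above input in every PABPN RIP library and below it in every PABPC RIP library, with a difference of 1.93 (adjusted p = 3.61e-05) and 1.21 after centring (adjusted p = 0.0016). Both differences kept their call in 9 of 9 fits that left out a library. Against input, the rise of SNORA104 in the PABPC RIP was kept in 6 of 6 such fits, but its fall in the PABPN RIP in 1 of 6. The rise of SNAR-G1 was kept in 1 of 6 and its fall in 2 of 6. Both SNAR-G1 calls against input were lost after centring (adjusted p = 0.018 and 0.013).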

How the results depend on the processing

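No paired analysis was possible because the deposited columns carry no replicate numbers for their libraries, although each lysate was divided between the antibodies. Over 25 named members, 1128 values were recomputed under the alternatives: 1030 kept their direction and side of the threshold, 73 kept the direction and missed the threshold, 8 kept the direction and passed it, and 17 changed sign, 0 of them called in either fit. After centring, the values that changed sign were RNU5D-1 (-0.13) and RNU5E-4P (-0.05) in the PABPN RIP against input, and RNU2-63P (-0.10), RNU6-1 (-0.08) and SNORD3B-1 (-0.15) in the PABPN RIP against the PABPC RIP. The others changed sign when a library was left out, all in the PABPN RIP against input, with ranges of -0.68 to 0.07 for RNU5A-1, -0.13 to 0.41 for RNU5B-1, -0.35 to 0.29 for RNU5D-1, -0.48 to 0.21 for RNU5A-8P, -0.24 to 0.31 for RNU5E-4P and -0.27 to 0.14 for RNU2-59P. Leaving out 1 library at a time gave 8 to 14 members lower and 1 to 2 higher in the PABPN RIP, 20 to 22 lower and 1 higher in the PABPC RIP, and 1 to 2 lower and 11 to 15 higher in the PABPN RIP against the PABPC RIP. For the protein genes it gave 0 to 1 lower and 0 higher, 0 to 1 lower and 3 higher, and 3 lower and 1 higher. With a baseMean filter of 50, which fits fewer members, 6 were lower in the PABPN RIP, 9 in the PABPC RIP and 1 in the PABPN RIP against the PABPC RIP. With a log2 cut-off of 1, 1 member was higher in the PABPN RIP, 0 protein genes were lower there, and 0 were higher in the PABPN RIP against the PABPC RIP. With an adjusted p of 0.05, 2 members were higher in the PABPC RIP. Centring left 1 member higher in the PABPN RIP, and 8 members and 0 protein genes higher in the PABPN RIP against the PABPC RIP. All 9 libraries in 1 fit left 1 member higher in the PABPN RIP. The cause was not tested where the construction of the alternative does not give it. Depth limits the members with few reads: SNORD3C had 3 reads in all PABPN RIP libraries. SNORD3A, RNVU1-31, RNU4-2 and RNU4-1 have no test.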
